A study of Mus musculus with 19 samples.

Results

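The genes described here encode collagens and proteoglycans of the extracellular matrix, together with a pair of stromal genes that are neither, measured by RNA-seq in mouse medial prefrontal cortex. Members were the protein-coding rows of the count table named as collagen alpha chains, plus Dcn, Lum, Bgn, Fmod, Ogn, Omd, Prelp, Aspn, Prg4, Cd248 and Igfbp7. Of 57010 genes in the table, 55 had such a name, and 54 reached 10 counts in at least 4 of the 19 libraries and were used. Col10a1 did not. All 54 also passed the expression filter that left 17757 genes for testing. The rule uses names and a count minimum, and no difference between groups.

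Collagens are trimers of alpha chains. Fibrillar collagens such as types I, III and V form the cables of connective tissue, type IV forms the sheet-like network of basement membranes, and collagens XV and XVIII are proteoglycans attached to that sheet. The small leucine-rich proteoglycans, among them decorin (Dcn), lumican (Lum), biglycan (Bgn) and fibromodulin (Fmod), bind to fibrils and control their assembly. The brain parenchyma holds little fibrillar collagen: in this organ it lies in the meninges and around larger vessels, where fibroblasts make it, while endothelial cells and pericytes surround every capillary with a basement membrane of collagen IV and laminin. Cd248 (endosialin) is a membrane protein of pericytes and fibroblasts, and Igfbp7 is a secreted protein that binds collagen IV and is made by vascular cells.

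All mice were wild type, and the labels give no age or sex. Controls (n = 4, numbered 1, 2, 4 and 5) had saline by gavage for 8 days and intraperitoneal saline for 5 days. LPS mice (n = 5) had the same gavage, begun 3 days before the injections, and 5 daily injections of lipopolysaccharide at 1 mg/kg, a bacterial cell wall component that provokes systemic inflammation. Sedanolide mice (n = 5) had sedanolide, a phthalide of celery seed, at 20 mg/kg by gavage for 8 days with saline injections. Co-treated mice (n = 5) had both agents, with gavage begun 3 days before LPS. The labels do not tie a replicate to an animal, and the p-values below reflect only the spread between these libraries, which may be technical. Library totals ran from 19.08 to 24.32 M counts (M, mega).

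The libraries differed in how much neighbouring tissue they held. Cdhr1, a cadherin of olfactory bulb projection neurons, stood at 57.1 to 454 CPM (counts per M) in 7 libraries, called bulb-rich below (controls 1 and 5, LPS 2, 3 and 4, sedanolide 3 and 4). In the remaining 12, called bulb-poor, it ran from 2.31 to 9.72 CPM. No co-treated library was bulb-rich. Markers of meningeal and perivascular fibroblasts (12 genes, none a member) were above 0 in every library, and their summed level ran from 49.4 to 258 CPM in controls, 50.7 to 350 in LPS, 55.9 to 102 in sedanolide and 54.3 to 72.1 in co-treated libraries. The 5 markers of cortical excitatory neurons summed to 898 CPM or more in every library. In bulk tissue, fewer cells of a type and less RNA per cell cannot be told apart.

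The sequences shown here are those at the starts of members on which the results below turn. Col4a1 and Col4a2, which encode the chains of the common collagen IV trimer, start head to head from opposite strands, and in the RefSeq models (GRCm38.p6) their first 22 transcribed bases overlap. The 30 bases at chr8:11312801-11312830 are given on each strand, with the 22 shared bases in capitals, which hold 1 GC box (GGGCGG on either strand, a motif bound by Sp1).

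Col4a2, plus strand: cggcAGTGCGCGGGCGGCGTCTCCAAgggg
Col4a1, minus strand: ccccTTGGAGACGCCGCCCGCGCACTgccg

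Igfbp7, with the smallest p of the members after LPS, and Fmod, with no called difference between groups and the steepest slope on fibroblast markers, are given by the 250 bases before their starts, at chr5:77408046-77408295 (minus strand) and chr1:134037004-134037253 (plus strand), with GC boxes in capitals.

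Igfbp7: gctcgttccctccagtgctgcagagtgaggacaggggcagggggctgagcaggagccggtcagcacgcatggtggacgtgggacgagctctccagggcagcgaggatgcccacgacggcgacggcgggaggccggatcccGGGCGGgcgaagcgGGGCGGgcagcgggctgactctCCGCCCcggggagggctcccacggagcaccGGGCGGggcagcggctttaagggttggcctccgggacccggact
Fmod: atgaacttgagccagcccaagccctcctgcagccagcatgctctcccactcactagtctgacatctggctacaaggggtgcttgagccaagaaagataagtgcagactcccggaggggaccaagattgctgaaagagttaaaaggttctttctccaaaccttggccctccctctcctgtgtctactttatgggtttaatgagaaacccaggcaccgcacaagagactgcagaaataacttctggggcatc

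The Igfbp7 stretch holds 4 GC boxes and 74% G or C, and the Fmod stretch holds no GC box and 51.2%, beside a median of 52.7% over all RefSeq promoters. In windows of 300 bases (250 before the start and 50 after), RefSeq had entries for 41 of the 54 members, with 44 starts in all. A GC box on either strand was in 25 of these 44 windows (56.8%), against 35.7% of 32851 promoters. CCAAT was in 36.4% of members' windows and 37.4% of all, the AP-1 motif TGANTCA in 2.27% and 7.81%, and the STAT motif TTCCNGGAA in 0% and 1.15%. A match is a description of the letters and not of binding.

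Per kilobase of exon, the member with the highest level was Igfbp7, with a mean of 47.4 CPM per kb over the libraries. Col4a1 (8.79 CPM per kb), the collagen VI chain gene Col6a1 (8.31) and Col4a2 (8.12) followed. The proteoglycan genes Prelp (6.09 CPM per kb), Fmod (5.90) and Bgn (5.41) came next, ahead of the fibrillar collagen with the highest level, Col1a2 (2.51). The lowest level was that of Col6a5, at 0.0298 CPM per kb and never above 0.875 CPM.

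The first comparison asked what repeated LPS did to these genes. Igfbp7, Cd248, the collagen IV chain genes Col4a1 and Col4a2, the collagen VI chain genes Col6a3 and Col6a6 and the fibrillar chain gene Col11a2 rose, while none of the other 10 fibrillar collagens and none of the 8 leucine-rich proteoglycans was called. Col4a1 stood at 48.6, 48.1, 28.6 and 35.7 CPM in controls 1, 2, 4 and 5, and at 101, 152, 112, 90.4 and 93.7 CPM in LPS 1 to 5. Every LPS library was above every control, and the rise was 2.77-fold, 1.47 on the log2 scale (SE 0.18, adjusted p = 8.1e-06 in edgeR, adjusted over all genes tested by the Benjamini-Hochberg method). Its partner Col4a2 stood at 45.4, 38.8, 30.2 and 32.7 CPM in controls and at 78.9, 112, 82.5, 72.8 and 69.9 CPM after LPS. These groups did not overlap either, and the log2 change was 1.20 (SE 0.15, adjusted p = 1.6e-05). In the coordinates of the deposited table, whose build is not given in the sources used here, Col4a1 (ENSMUSG00000031502) lies on the minus strand of chromosome 8 from 11248423 to 11362826 and Col4a2 (ENSMUSG00000031503) on the plus strand from 11362805 to 11499287. The other chains of collagen IV were not called: the log2 changes were 0.90 (SE 0.35) for Col4a3, -0.24 (0.26) for Col4a4, 0.18 (0.27) for Col4a5 and 0.22 (0.30) for Col4a6. Col18a1, the collagen that carries endostatin, had a change of 0.83 (SE 0.30, adjusted p = 0.0866), and Col15a1 one of 0.41 (SE 0.26). The lack of calls depended in part on the setting. With the bulb index, described below, as a covariate Col18a1, Col20a1 and the fibrillar chain genes Col5a3 and Col27a1 were called higher too. Over all genes, that fit called 2005 higher and 793 lower of 17757. Col18a1 was also called with fibroblast markers as a covariate and with limma-voom.

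Igfbp7 (ENSMUSG00000036256, chromosome 5, 77497087 to 77555888, minus strand) had 43.7, 34.9, 20.5 and 37.2 CPM in controls and 96.6, 150, 111, 97.9 and 101 CPM after LPS. The lowest LPS library had more than the highest control, and the rise was 3.32-fold (log2 1.73, SE 0.16, adjusted p = 4.68e-07). Cd248 had 6.15, 7.16, 3.82 and 4.86 CPM in controls and 8.66, 13.4, 11.1, 10.5 and 8.04 CPM after LPS, again without overlap, a change of 0.94 on the log2 scale (SE 0.17, adjusted p = 6.3e-04). Collagen VI is a beaded filament collagen found beside basement membranes. Of the chains that can complete its trimer, Col6a3 had 2.22 CPM ± 0.646 (SD, n = 4) in controls and 3.78 ± 0.674 (SD, n = 5) after LPS. Its log2 rise was 0.79 (SE 0.19, adjusted p = 0.0082), and that of Col6a6 1.67 (SE 0.43, adjusted p = 0.0138). Col6a6 stood at 0.679, 0.698, 0.392 and 0.465 CPM in controls and at 0.368, 2.66, 1.59, 2.83 and 1.44 after LPS, so that LPS 1 lay below every control. Col6a1 and Col6a2, the chains common to all collagen VI, had changes of -0.10 (SE 0.22) and -0.06 (SE 0.19). Col11a2, a minor fibrillar chain, rose by 0.75 (SE 0.21, adjusted p = 0.0267), and its groups overlapped.

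In all, 7 members were called higher after LPS and 0 lower. That is 13.0% of the members, beside 8.47% of all genes tested that were called higher and 2.44% called lower. The groups did not overlap for 4 members, all higher, where 7.39% of all genes had every LPS library above every control and 3.38% every one below. The members' median log2 change was 0.18, and that of all genes -0.0034. By class, 2 of 8 basement membrane collagens, 2 of 8 collagens VI, VII and XXVIII, 1 of 11 fibrillar collagens, 0 of 9 fibril-associated (FACIT) collagens and 0 of 8 leucine-rich proteoglycans were called. The main bone, skin and tendon collagens were not called: Col1a1 stood at 24.3, 25.1, 7.25 and 14.7 CPM in controls and at 12.9, 28.1, 20.6, 30.2 and 7.13 after LPS (log2 change 0.17, SE 0.36). Col3a1 had a change of 0.42 (SE 0.37), Dcn of 0.24 (SE 0.33) and Fmod of -0.07 (SE 0.64).

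**Figure D1:**
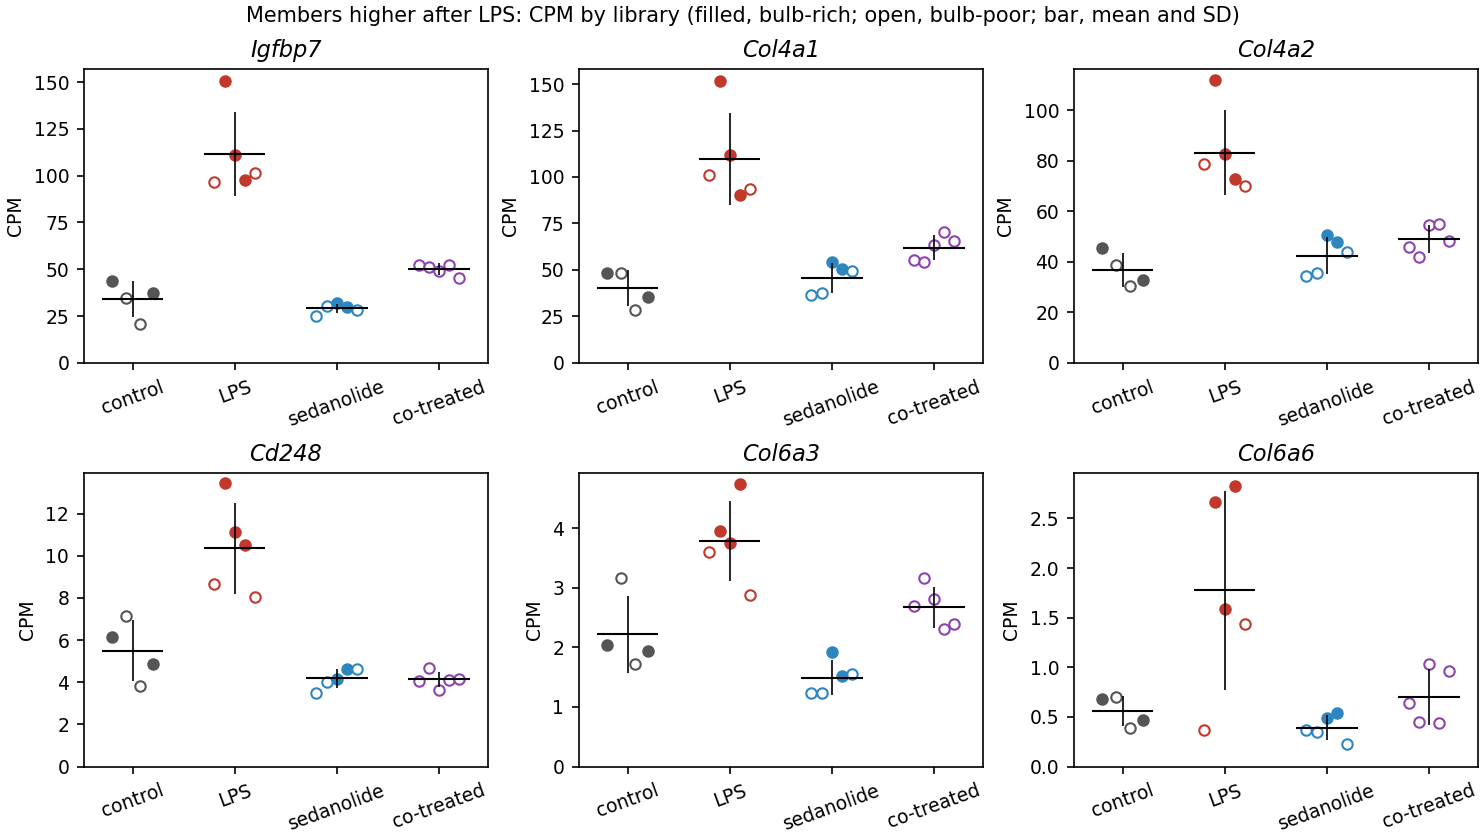
CPM by library of 6 members called higher after LPS, by group (1 point per library, filled for bulb-rich and open for bulb-poor libraries, with mean and SD). For Igfbp7, Col4a1, Col4a2 and Cd248 every LPS point is above every control point, and the co-treated points of Igfbp7 sit between 45.3 and 52.4 CPM.

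Endothelial markers moved with these genes: 8 of 8 were called higher after LPS, and their summed level ran from 296 to 470 CPM in controls, 580 to 731 in LPS, 338 to 407 in sedanolide and 435 to 547 in co-treated libraries. Of 8 pericyte and smooth muscle markers tested 4 were called higher. Their part in the rise of Col4a1, Col4a2 and Igfbp7 was not tested. No fibroblast marker of 12 was called, with a median change of 0.09. Igfbp7, Col4a1 and Col4a2 were called in all 19 fits that left out 1 library and in the 12 other settings tried, including bulb-poor libraries alone (log2 changes of 1.83, 1.34 and 1.11). In those libraries Cd248 (0.60, adjusted p = 0.21), Col6a3 (0.40, 0.50), Col6a6 (0.68, 0.60) and Col11a2 (0.76, 0.18) were not called. That fit set controls 2 and 4 against LPS 1 and 5. Over all genes it called 722 higher and 126 lower, beside 1504 and 434 with all 19 libraries. In bulb-rich libraries alone Cd248, Col6a3 and Col6a6 were called higher with Igfbp7, Col4a1 and Col4a2, and Col11a2 was not. Over all genes, that fit called 685 higher and 76 lower of 17847. Col6a6 was not called without control 5, nor Col11a2 without control 4 or 5 or LPS 1 or 3.

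The comparison of co-treated with LPS mice asked what sedanolide changed in animals given LPS. Of the 7 members called higher after LPS, Cd248, Igfbp7, Col4a1 and Col4a2 were called lower in co-treated than LPS libraries. The other 3 were not called: Col6a6, with the second largest rise after LPS, had a difference of -1.34 (SE 0.39, adjusted p = 0.0813), Col6a3 one of -0.51 (SE 0.18) and Col11a2 one of -0.06 (SE 0.19). Cd248 stood at 4.07, 4.67, 3.65, 4.13 and 4.14 CPM in co-treated 1 to 5, all below the lowest LPS library, and the difference from LPS was -1.33 on the log2 scale (SE 0.16, adjusted p = 1.8e-04). Igfbp7 stood at 52.4, 51.2, 49.1, 52.3 and 45.3 CPM, below every LPS library and above every control, with a difference of -1.16 (SE 0.15, adjusted p = 4.1e-04). Col4a1 had 55.5, 54.5, 63.2, 70.3 and 65.8 CPM (log2 difference -0.84, SE 0.16, adjusted p = 0.0106). Col4a2 had 46.0, 41.9, 54.6, 54.9 and 48.3 CPM (-0.77, SE 0.14, adjusted p = 0.0075). For these 4 genes, which were also higher in LPS than in control, the 2 comparisons share the LPS libraries and so are not independent.

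Another 4 members were called lower in co-treated than LPS libraries, each with a smaller margin. They were the minor FACIT chain gene Col20a1 (-0.74, SE 0.16, adjusted p = 0.0214), the fibril-starting chain gene Col5a1 (-0.65, SE 0.15, adjusted p = 0.0300), Col18a1 (-1.17, SE 0.28, adjusted p = 0.0396) and Prg4. Prg4, the gene of the joint lubricant lubricin, had the largest log2 difference at -2.78 (SE 0.70, adjusted p = 0.0499). It stood at 3.09, 34.2, 9.78, 19.6 and 0.639 CPM in LPS 1 to 5 and at 2.61, 2.09, 2.06, 2.26 and 0.785 in co-treated 1 to 5. The LPS values above 9 CPM were those of the 3 bulb-rich libraries, and the other LPS values lay on either side of the co-treated range. In bulb-poor libraries alone the Prg4 difference was 0.03.

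Of the 54 members, 8 (14.8%) were called lower in co-treated than LPS libraries and 0 higher, where 1.68% of all genes were called lower and 0.287% higher. The sign was negative for 49 members, with a median of -0.76, beside -0.0127 over all genes. All 11 fibrillar collagens, 8 basement membrane collagens and 8 leucine-rich proteoglycans had a negative sign, 1, 3 and 0 of them called. The groups did not overlap for 9 members that were lower (4.47% of all genes) and 1 that was higher (3.80%), the transmembrane collagen gene Col25a1. Fibroblast markers had a median difference of -1.54 with none of 12 called, and bulb markers one of -5.36 with none of 4 called. Igfbp7 alone was called in bulb-poor libraries (-0.99, adjusted p = 0.00726), where LPS 1 and 5 were set against the 5 co-treated libraries. There Cd248 had a difference of -1.02 (adjusted p = 0.0524), Col4a2 one of -0.60 (0.0822) and Col4a1 one of -0.66 (0.176). Over all genes, that fit called 14 higher and 21 lower of 17753, beside 51 and 299 with all 19 libraries. A fit that calls so few genes cannot show that a member's difference was lost. With fibroblast markers as a covariate Igfbp7 (-0.92) and Cd248 (-1.03) were called, and over all genes 16 higher and 71 lower. Leaving out 1 library gave 4 to 17 calls, and Cd248, Igfbp7, Col4a1 and Col4a2 were called in all 19 such fits. The count was 4 without LPS 2 or 3 or co-treated 1, 2 or 3, and 17 without LPS 5.

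**Figure D2:**
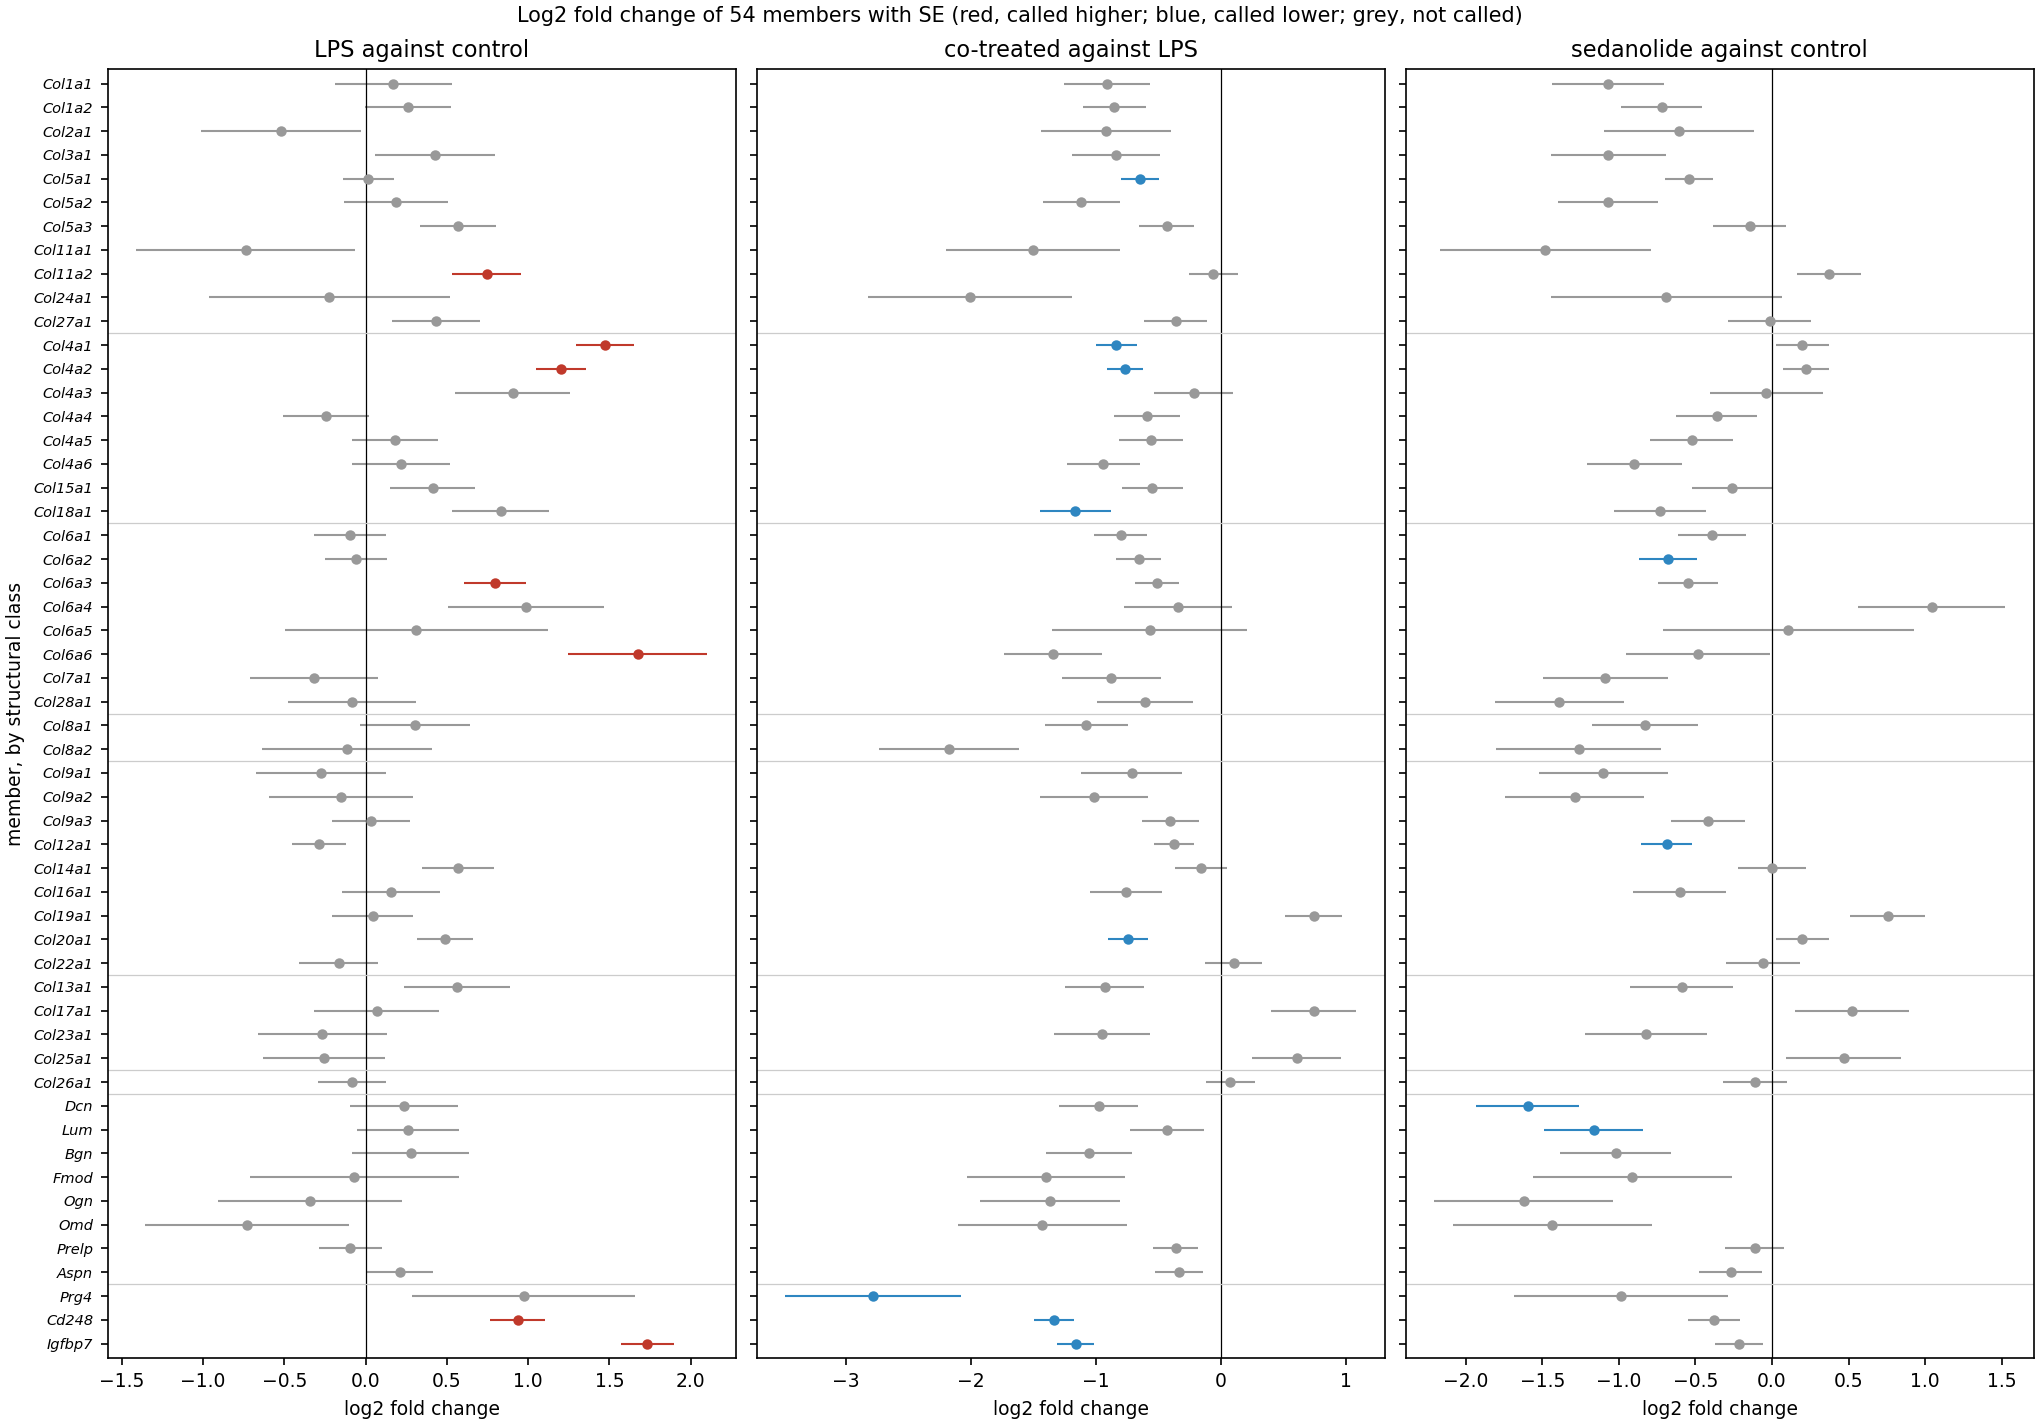
Log2 fold change with SE of the 54 members in LPS against control, co-treated against LPS and sedanolide against control, grouped by structural class (red, called higher; blue, called lower; grey, not called; the panels have different scales). After LPS 7 members are red, most members sit left of 0 in co-treated against LPS (8 blue), and 4 are blue in sedanolide against control.

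Sedanolide without LPS was set against control to see its own effect. In the edgeR fit Dcn, Lum, Col12a1 and Col6a2 fell, and the other 50 members were not called, the 11 fibrillar collagens among them. The lack of fibrillar calls depended on the setting. DESeq2 called Col1a1, Col1a2, Col3a1, Col5a1 and Col5a2 lower. Col5a1 was also called lower with RLE or upper quartile library factors and with a filter of 1 CPM in 4 libraries. Dcn stood at 37.4, 25.1, 10.9 and 27.6 CPM in controls and at 6.52, 8.64, 7.77, 7.71 and 10.6 CPM in sedanolide 1 to 5. Every sedanolide library was below every control, by a narrow gap to control 4, and the log2 change was -1.60 (SE 0.34, adjusted p = 0.0165). Lum, its neighbour on chromosome 10, had 4.94, 6.46, 2.25 and 5.29 CPM in controls and 1.73, 2.16, 1.07, 2.06 and 3.44 with sedanolide (-1.16, SE 0.32, adjusted p = 0.0432), and control 4 lay within the sedanolide range. Col12a1, a FACIT chain gene that coats fibrils, fell by 0.69 (SE 0.17, adjusted p = 0.0268), from 22.0 CPM ± 4.07 to 13.5 ± 2.19. Col6a2 fell by 0.68 (SE 0.19, adjusted p = 0.0437), from 17.5 CPM ± 3.82 to 10.8 ± 2.33.

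These 4 were 7.41% of the members, beside 2.11% of all genes called lower, and 0 members were called higher against 3.20% of all genes. The groups did not overlap for 5 members, all lower (3.81% of all genes): Dcn, Col12a1, Col6a2, Col4a6 and Col8a1. The members' median was -0.57, and that of all genes -0.0119. Col1a1 (-1.07, SE 0.36), Col3a1 (-1.07, SE 0.38), Bgn (-1.02, SE 0.36) and Ogn (-1.62, SE 0.58) had large differences that were not called (adjusted p of 0.0862 to 0.0997). Col4a1 (0.20, SE 0.17), Col4a2 (0.22, SE 0.15) and Igfbp7 (-0.22, SE 0.16) had small ones. All 12 fibroblast markers had a negative sign, with a median of -1.18 and none called. In bulb-poor and in bulb-rich libraries alone no member was called, with Dcn at -1.10 (adjusted p = 0.165) and -2.05 (0.0963). The first fit set controls 2 and 4 against sedanolide 1, 2 and 5, and the second controls 1 and 5 against sedanolide 3 and 4. Over all genes, the first called 1 higher and 7 lower of 17753, and the second 0 of 17847. Fits that call so few genes cannot show that a member's change was lost. With fibroblast markers as a covariate only Dcn of the 54 was called (-0.95, SE 0.17). Leaving out 1 library gave between 0 calls (without control 5 or sedanolide 4) and 12 (without control 4). Dcn was called in 16 of these 19 fits, Col12a1 in 15, Lum in 8 and Col6a2 in 7.

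**Figure D3:**
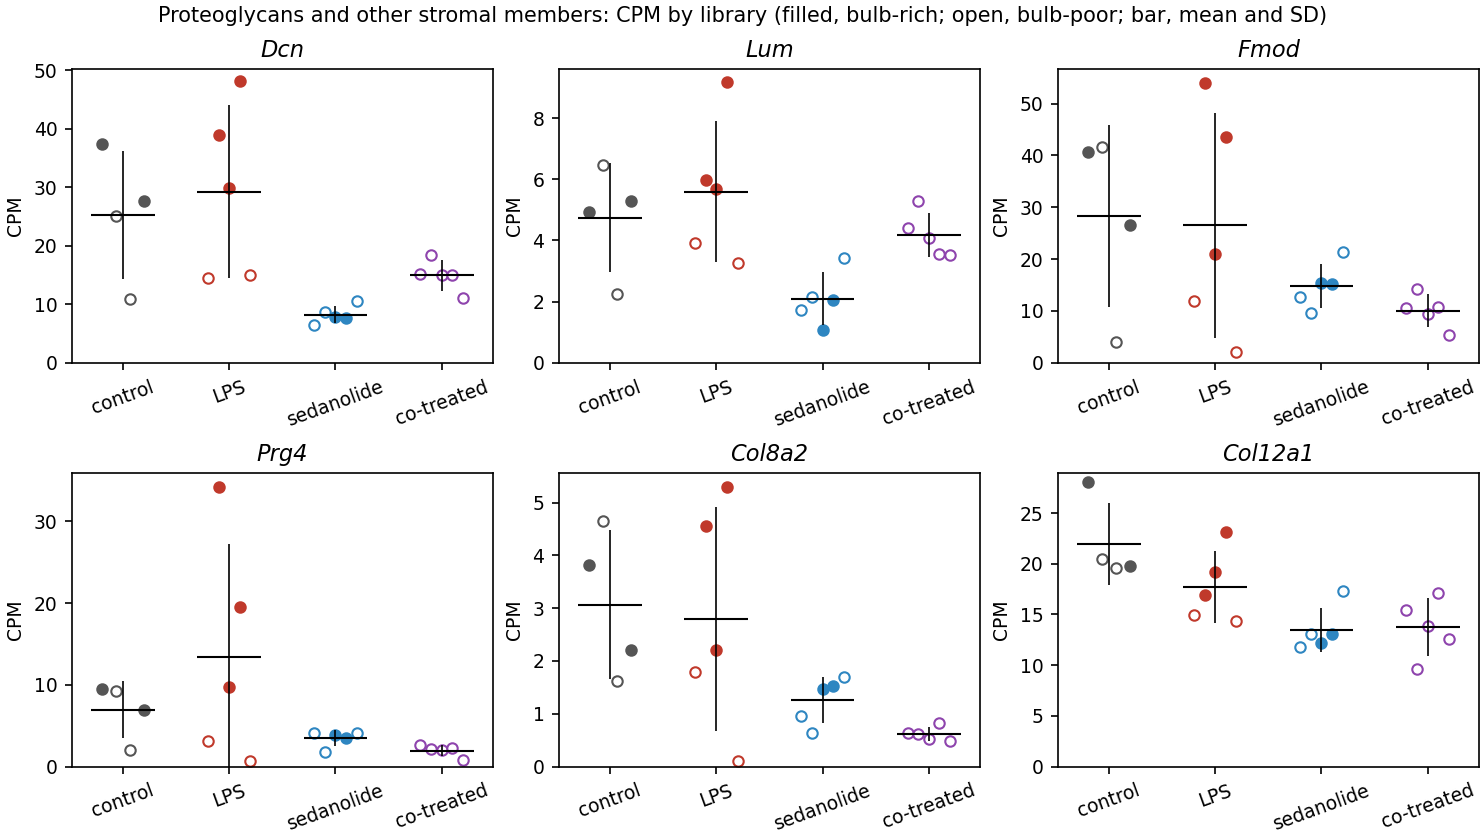
CPM by library of 6 members of connective tissue, by group (1 point per library, filled for bulb-rich and open for bulb-poor libraries, with mean and SD; bars are drawn from 0 up). Sedanolide points of Dcn lie between 6.52 and 10.6 CPM, and the control and LPS points of Fmod and Prg4 are spread over most of their axes.

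Against control, co-treated libraries were higher in 4 members (7.41%, beside 6.38% of all genes) and lower in 6 (11.1%, beside 4.69%). With upper quartile library factors the count was 2 higher and 7 lower. The higher ones were Col4a1 (0.64, SE 0.17, adjusted p = 0.0260), Igfbp7 (0.57, SE 0.16, adjusted p = 0.0287), Col11a2 (0.68, SE 0.21, adjusted p = 0.0439) and Col19a1 (0.79, SE 0.24, adjusted p = 0.0451), a FACIT chain gene expressed by neurons. The lower ones included both common collagen VI chains, Col6a1 (-0.90, SE 0.22, adjusted p = 0.0163) and Col6a2 (-0.72, SE 0.19). Col6a1 stood at 55.2, 43.4, 44.8 and 40.7 CPM in controls and at 22.9, 15.0, 25.8, 28.4 and 30.2 in co-treated libraries, without overlap. Col5a1 (-0.63, SE 0.16), Col12a1 (-0.66, SE 0.17), the short-chain collagen gene Col8a2 (-2.29, SE 0.58) and the proteoglycan gene Omd (-2.16, SE 0.68, adjusted p = 0.0490) were lower too. Omd was called in 5 of the 19 fits that left out 1 library, Col19a1 in 7 and Col11a2 in 12. The groups did not overlap for 3 members that were higher (7.75% of all genes) and 9 that were lower (5.15%). Fibroblast markers had a median difference of -1.55 with 2 of 12 called lower, bulb markers one of -6.54 with 4 of 4 called lower, and endothelial markers one of 0.51 with 6 of 8 called higher. Their part in these calls was not tested beyond the fits that follow. With the bulb index as a covariate Igfbp7 (0.82), Col4a1 (0.83) and Col4a2 (0.64) were called higher and no member lower, with Col6a2 at -0.68 (adjusted p = 0.0563) and Col8a2 at -1.77 (0.0749). With fibroblast markers as a covariate the same 3 genes were called higher (0.85, 0.91 and 0.65) and Col5a1 lower (-0.59, adjusted p = 0.0492). In bulb-poor libraries alone Igfbp7 (0.85) was called higher and Col6a2 (-0.97) and Col8a2 (-2.35) lower. Over all genes, these 3 fits called 772, 830 and 475 higher, beside 1133 in the fit by group alone. They called 308, 279 and 140 lower, beside 832, so fewer lower calls are not particular to the members. Without a filter on low counts, and with the replicate number as a block, no member was called higher and 4 and 5 were called lower. Over all genes, those fits called 814 and 686 higher and 430 and 268 lower. Leaving out 1 library gave from 4 calls (without control 1) to 17 (without control 4).

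Set against sedanolide alone, co-treated mice show the LPS effect under sedanolide. Igfbp7 stood at 24.9, 30.3, 31.8, 29.9 and 28.4 CPM in sedanolide libraries, all below the co-treated range, and was higher by 0.79 in co-treated libraries (SE 0.15, adjusted p = 0.00187). Col6a3 stood at 1.23, 1.23, 1.92, 1.53 and 1.56 CPM in sedanolide and at 2.70, 3.16, 2.81, 2.30 and 2.40 in co-treated libraries, without overlap (0.83, SE 0.18, adjusted p = 0.00696). These 2 members (3.70%, beside 5.09% of all genes) were called higher and 0 lower (0.484% of all genes). Both were called whichever of the 19 libraries was left out, and in the 11 other settings tried. The groups did not overlap for 7 members, all higher (5.58% of all genes, beside 1.66% in the lower direction). Besides Igfbp7 and Col6a3 these were Col4a1, Col18a1, Col3a1, Dcn and Lum.

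The interaction, the difference between sedanolide's change with LPS and without it, was called for Col4a2 alone among the members (1.85%, beside 0.372% of all genes lower and 0.214% higher). Its value was -0.99 on the log2 scale (SE 0.21, adjusted p = 0.0407): sedanolide changed Col4a2 by 0.22 without LPS and by -0.77 with it. Col4a1 (-1.03, SE 0.24, adjusted p = 0.0540), Igfbp7 (-0.95, SE 0.22, adjusted p = 0.0540) and Cd248 (-0.96, SE 0.23, adjusted p = 0.0695) had values of like size that were not called. Leaving out 1 library gave 0 to 4 calls, with 4 without control 1 or 2 and 0 without any of 12 others: control 4 or 5, LPS 1, 2 or 3, sedanolide 3, 4 or 5, or co-treated 1, 2, 3 or 4. With the bulb index as a covariate 4 members were called, all lower, beside 80 genes higher and 193 lower of 17757. In bulb-poor libraries 0 members were called, beside 17 genes higher and 3 lower of 17753. So few calls cannot show that the Col4a2 interaction was lost.

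Members were then compared with bulb content. The bulb index is the mean z-score of log2 CPM of Eomes, Cdhr1, Doc2g and Shisa3, and its slope was fitted within groups, in log2 units per unit of index. Slopes were positive and called for 21 members (38.9%, beside 14.9% of all genes) and negative and called for 2 (3.70%, beside 16.7%). Col2a1 aside, which is treated below, the steepest called slopes were those of fibrillar chains of low abundance and of collagen IX. Collagen IX coats the fibrils of collagens II and XI in cartilage. These slopes were those of Col24a1 (1.33, SE 0.14, adjusted p = 6.3e-07), Col11a1 (1.14, SE 0.14, adjusted p = 8.6e-06), Col9a2 (0.68, SE 0.11) and Col9a1 (0.59, SE 0.12). Col24a1 had a lowest, median and highest level of 0.896, 2.12 and 4.75 CPM in the 7 bulb-rich libraries and of 0.186, 0.403 and 0.745 in the 12 bulb-poor ones, which did not overlap. Col11a1 had 1.39, 6.74 and 14.3 CPM in bulb-rich and 0.698, 1.33 and 1.91 in bulb-poor libraries, and LPS 3 was the bulb-rich library inside the bulb-poor range. Col2a1, the cartilage collagen, had 0.448, 1.03 and 1.51 CPM against 0.140, 0.321 and 0.588. It reached 10 counts in 7 bulb-rich libraries and 1 bulb-poor library and so passed the count minimum through the libraries where it is high, which makes its called slope (0.75, SE 0.13) a description. Col6a5, whose slope was not called, also needed a bulb-rich library to pass. Without this pair, 20 of 52 members (38.5%) had a positive called slope.

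Further positive slopes were those of Bgn (0.52, SE 0.09), Col23a1 (0.52, SE 0.11), Col28a1 (0.56, SE 0.13), Col7a1 (0.52, SE 0.13), Col16a1 (0.44, SE 0.07), Col5a2 (0.44, SE 0.09), Col27a1 (0.39, SE 0.07) and Dcn (0.40, SE 0.11). Those of Col6a6 (0.46, SE 0.16), Col18a1 (0.35), Col4a5 (0.31), Col15a1 (0.28), Col9a3 (0.26), Col20a1 (0.21), Igfbp7 (0.17) and Col4a2 (0.16) were called as well. Col4a1 had a slope of 0.15 (SE 0.06, adjusted p = 0.0755). The negative slopes were those of Col25a1 (-0.52, SE 0.10), whose product is found in amyloid plaques and is made by neurons, and Col19a1 (-0.27, SE 0.08). Col25a1 had 7.89, 25.5 and 40.9 CPM as lowest, median and highest in bulb-rich libraries and 27.3, 41.1 and 59.5 in bulb-poor ones, and the sets overlapped. Markers of other cells moved with the bulb index too, and beyond the fit with both indices that follows, their part in the members' slopes was not tested. Olfactory ensheathing cell markers were called positive for 4 of 4 (median slope 1.09), choroid plexus markers for 2 of 5 (0.57) and fibroblast markers for 4 of 12 (0.54, all 12 positive). Cortical excitatory neuron markers were called negative for 5 of 5 (-0.38), and none of 8 endothelial markers was called. With the bulb and fibroblast indices in the fit, 9 positive and 2 negative slopes were called, beside 1328 and 1020 over all 17757 genes. Col24a1 (1.42), Col11a1 (0.88) and Col9a2 (0.40) were among the positive ones and Dcn (0.07) was not. The negative ones were Col25a1 and Col1a2 (-0.18, SE 0.04, adjusted p = 0.00653), while Col19a1 was not called (-0.24, adjusted p = 0.131). Col1a2 had a slope of 0.15 (SE 0.11), not called, without the fibroblast index, and was called positive with the bulb index alone and no group term. In bulb-rich libraries alone 3 slopes were called, all positive, for Col24a1, Col9a2 and Col23a1, beside 181 positive and 6 negative of 17847 genes. In bulb-poor libraries alone 0 were called, where the index ran from -0.988 to -0.453. No gene of the 17753 tested had a called slope in those bulb-poor libraries. Leaving out 1 library gave between 17 calls (without control 1) and 35 (without control 2).

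The fibroblast marker index, the mean z-score of the 12 markers, was added after the values had been seen. With groups and the bulb index in the fit, 18 members (33.3%) had a positive called slope on it, beside 1.47% of all genes, and 0 a negative one (0.0451%). The slopes per unit of index were steepest for Fmod (1.45, SE 0.11, adjusted p = 1.48e-07), Prg4 (1.43, SE 0.15), Ogn (1.26, SE 0.16), Omd (1.25, SE 0.25) and Col8a2 (1.00, SE 0.18). Fmod had 40.7, 41.7, 4.07 and 26.6 CPM in controls and 11.9, 54.0, 21.0, 43.6 and 2.02 in LPS libraries. Its lowest values were those of control 4 and LPS 5, the libraries with the lowest fibroblast index of their groups (-0.997 and -1.22), and its highest that of LPS 2, with the highest (1.86). The main fibrillar collagens followed the index as well, with slopes of 0.79 (SE 0.09) for Col3a1, 0.72 (SE 0.08) for Col1a1 and 0.61 (SE 0.04, adjusted p = 4.66e-08) for Col1a2. The remaining called slopes were 0.68 for Col13a1, 0.62 for Lum, 0.59 for Col4a6, 0.55 for Dcn, 0.50 for Col9a2, 0.48 for Col18a1, 0.42 for Bgn, 0.40 for Col5a2, 0.39 for Col4a5 and 0.30 for Cd248. Col4a1 (0.18, SE 0.08), Igfbp7 (0.15, SE 0.07) and Col4a2 (0.11, SE 0.07) were not called.

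**Figure D4:**
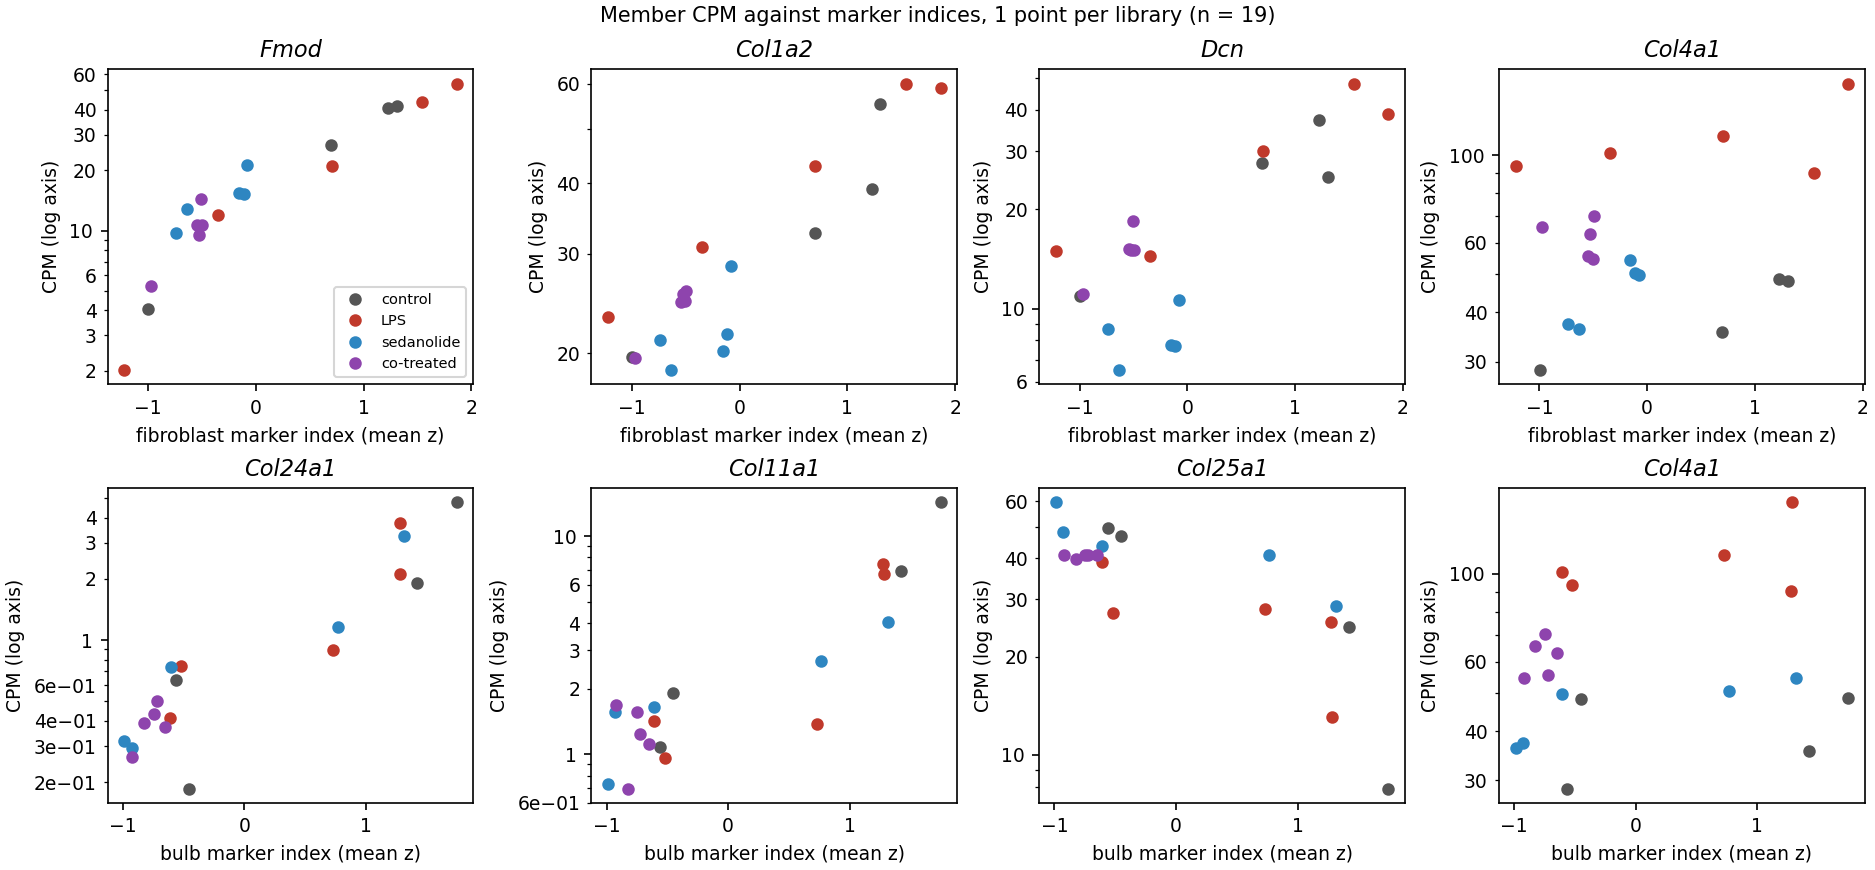
CPM (log axis) of members against the fibroblast marker index (top) and the bulb index (bottom), both in mean z, with 1 point per library coloured by group (n = 19). Fmod, Col1a2 and Dcn climb with the fibroblast index and Col24a1 and Col11a1 with the bulb index, Col25a1 descends, and for Col4a1 the 5 LPS points lie above the rest at any index value.

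Taking group comparisons and the bulb slope together, 19 members were called in at least 1 group comparison, 16 more on the bulb slope alone, and 19 in neither. The last 19 were Col1a1, Col1a2, Col3a1, Col5a3, Col4a3, Col4a4, Col4a6, Col6a4, Col6a5, Col8a1, Col14a1, Col22a1, Col13a1, Col17a1, Col26a1, Fmod, Ogn, Prelp and Aspn. They include the 3 genes of the most abundant collagens of connective tissue, which DESeq2 did call lower with sedanolide than in control. Over the 19 libraries, pairs of chains that form 1 trimer differed in how alike their profiles of log2 CPM were, given here as a description of libraries that share groups and tissue content. Pearson's r was 0.984 for Col4a1 with Col4a2 (0.947 after group means were removed), 0.945 (0.927) for Col1a1 with Col1a2, 0.869 (0.805) for Col4a5 with Col4a6, which also start head to head, and 0.728 (0.523) for Col6a1 with Col6a2. Col4a3 and Col4a4, whose starts lie 72 bases apart and whose chains join 1 trimer in kidney, had an r of -0.074 (0.227), both at low levels. Between types, r was 0.934 (0.913) for Col1a1 with Col3a1. For Col4a1 it was 0.944 with Igfbp7 and 0.497 with Col1a1, and these lay closer together after group means were removed, at 0.738 and 0.661. The genes outside the members with the most similar profiles to Col1a1 were Colec12, Pcolce, Foxc1, Foxd1 and Mxra8 (r of 0.953 to 0.927), of which Foxd1 is 1 of the 12 fibroblast markers. For Col4a1 they were Eng, Stab1, Tagln2, Tln1 and Tie1 (0.984 to 0.966), and for Dcn Fgl2, H2-Aa, Cd74, Emilin1 and Itih2 (0.947 to 0.921).

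Genes that make, bind or cut these proteins were read from the same fits. Of all genes tested, 8.47% were called higher after LPS and 2.44% lower. After LPS, 6 of 25 genes of collagen synthesis and processing were called higher and 0 lower, led by Sparc, whose product binds collagen (0.98, SE 0.16), the lysyl hydroxylase Plod3 (0.64) and the galactosyltransferase Colgalt1 (0.39). Of 13 laminin and basement membrane genes, 6 were called higher and 0 lower, among them the laminin chains Lama4 (0.89, SE 0.17) and Lamc1 (0.70) and perlecan, Hspg2 (1.21, SE 0.24). Of 11 genes of collagen degradation 3 rose: the gelatinases Mmp9 (2.80, SE 0.27) and Mmp2 (0.81) and the inhibitor Timp1 (1.84, SE 0.50). The collagen-binding integrin chains Itga1 (0.80) and Itgb1 (0.51) rose, 2 of 7 receptors. Of 10 genes of TGF-beta signalling, which drives collagen transcription, Tgfb1 (1.29), Tgfbr2 (1.20) and the target Tgfbi (1.28) rose and Ccn2 (-0.82) fell. None of the 7 chondroitin sulfate proteoglycans of brain tissue was called.

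Of all genes, 1.68% were called lower in co-treated than LPS libraries and 0.287% higher. Of the 13 laminin and basement membrane genes, 5 were called lower there and 0 higher, led by Hspg2 (-1.29, SE 0.22), Lamb2 (-0.85) and Lama4 (-0.71). All 13 had positive slopes on the bulb index, 5 of them called (14.9% of all genes). Their slopes on the fibroblast index were all positive too, with 3 called (1.47% of all genes). No co-treated library was bulb-rich, and the part of tissue content in these differences was not tested. Mmp9 (-1.61, SE 0.23), Tgfbi (-1.29), Crtap (-0.66), a partner of prolyl 3-hydroxylase, and Itgb1 (-0.38) were lower as well, while the prolyl 4-hydroxylase chain P4ha1 was higher (0.41, SE 0.06). With sedanolide alone, the cross-linking enzyme Lox (-1.20, SE 0.34), Ccn2 (-1.45, SE 0.24) and Tgfb2 (-0.34) were called lower, and no laminin, receptor or degradation gene was called. Over all genes, 2.11% were called lower with sedanolide and 3.20% higher.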

How the data were processed

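Poly(A) RNA of 19 cortex libraries was extracted with TRIzol, captured on oligo(dT) beads and made into stranded Illumina libraries, per the labels' protocols. The authors deposited raw read counts by gene, in whole numbers. The submitters' processing notes name fastp, HISAT2, StringTie, RSEM and DESeq2 without versions, while the counts carry the name featureCounts. Its strand setting and the genome build are not given in the sources used here, so reads of overlapping or antisense genes cannot be told apart.

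The tool for testing was edgeR 4.0.16 (R 4.3.3), with TMM library factors, its default filter by group and its robust quasi-likelihood test, two-sided, on a mean per group over all 19 libraries. Benjamini-Hochberg adjustment was over the 17757 genes tested, and called means an adjusted p below 0.05. SE was computed as the size of the log2 change divided by the square root of F. CPM are scaled by the TMM factors, and log2 CPM used a prior count of 2. Libraries with Cdhr1 of at least 20 CPM were bulb-rich. Levels per kb used exon lengths of the GENCODE GRCm38 annotation, matched by gene ID for 54 of 54 members. The fits were tested on simulated data. No library pair had identical values.

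Named were members called in any comparison, the highest member of each class, up to 3 called partner genes per list and comparison, and the 5 genes most like Col1a1, Col4a1 and Dcn. Members and lists were chosen with earlier results of these data known. Alternatives were RLE and upper quartile factors, no filter, a filter of 1 CPM in 4 libraries, DESeq2 1.42.0, limma-voom (limma 3.58.1), the replicate number as a block, only the groups compared, leaving out each library, the bulb index as a covariate, and bulb-poor or bulb-rich libraries alone. The fibroblast index was added after the data had been seen. Control replicate 3 was not analysed here.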

Additional observations from a re-analysis of the deposited data

Results flagged for a closer look

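Of 76 sets of values (19 members called between groups, in 4 groups), 7 had 1 library far from the others by Dixon's test at 95%, a test that chance meets in about 1 of 20 sets. LPS 2 stood apart for Igfbp7 (150.4 CPM, with the other LPS libraries at 96.6 to 111) and for Col6a1 (60.7, with the others at 33.9 to 39.4). That library had the highest mean z-score of fibroblast (1.86), endothelial (1.64) and pericyte and smooth muscle (1.85) markers. Control 1 stood apart for Col12a1 (28.0, with the others at 19.5 to 20.5), and control 4 for Omd (0.196, with the others at 2.37 to 2.64). Among sedanolide libraries, replicate 5 stood apart for Col12a1 (17.3, others 11.8 to 13.1), replicate 2 for Prg4 (1.77, others 3.55 to 4.08) and replicate 1 for Col19a1 (5.02, others 3.01 to 3.57).

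The change of Col4a2 with sedanolide differed between mice given LPS and mice not given it, by -0.99 on the log2 scale (adjusted p = 0.0407, edgeR), and was called in 7 of 19 fits that left out 1 library.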

How the results depend on the processing

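Counts of members called, given in the order LPS and sedanolide (each against control), co-treated (against LPS, control and sedanolide in turn), interaction and bulb slope, were 7, 4, 8, 10, 2, 1 and 23. The settings that moved them by more than 1.5 times are given here, and the causes were not tested. No filter gave 2 for sedanolide and 4 for co-treated against control. DESeq2 gave 14 for sedanolide, 19 and 18 for co-treated against LPS and against control, and 5 for the interaction. Limma-voom gave 11, 13, 22, 21, 10 and 6 for the first 6. Calls over all 17757 genes moved with the tool as well. For the interaction, limma-voom called 1629 genes higher and 2207 lower, beside 38 and 66 in the fit used here. For co-treated against sedanolide it called 2201 and 1312, beside 904 and 86. For sedanolide, DESeq2 called 1115 higher and 819 lower, beside 568 and 375. The larger counts are therefore not particular to the members. Only the groups compared gave 4 for LPS, 0 for sedanolide and 6 for co-treated against sedanolide, and upper quartile factors 0 for the interaction. The bulb index as a covariate gave 11 for LPS, 3 for co-treated against LPS, 3 against control, 6 against sedanolide and 4 for the interaction. Bulb-poor libraries gave 3, 0, 1 and 3 for the first 4, and 0 for the interaction and the slope. Bulb-rich libraries gave 0 for sedanolide and 3 for the slope. Over all genes, the bulb-poor fits called 722 higher and 126 lower for LPS, and 1 and 7 for sedanolide. They called 14 and 21 for co-treated against LPS, 475 and 140 against control, 17 and 3 for the interaction and 0 for the slope. The bulb-rich fits called 0 for sedanolide, and 181 higher and 6 lower for the slope. The fibroblast index gave 1 for sedanolide, 2 for co-treated against LPS, 4 against control, 8 against sedanolide, 5 for the interaction and 11 for the slope. Leaving out 1 library gave 5 to 9, 0 to 12, 4 to 17, 4 to 17, 2 to 3, 0 to 4 and 17 to 35 calls.

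Direction turned in bulb-poor libraries alone for Prg4 in co-treated against LPS (0.0339) and for the bulb slopes of Col7a1 (-0.790), Col9a2 (-0.394), Col9a3 (-0.390) and Col28a1 (-1.62), and for no other call under the settings run. In bulb-poor libraries the index ran only from -0.988 to -0.453, and 0 of 17753 genes had a called slope. The turned signs of these 4 slopes therefore cannot show a reversal. Same-numbered libraries did not deviate together: of 27 pairs 5 had a correlation over 0.1 (median -0.054), and 1 library correlated best with its own number. With the replicate number as a block the counts were 6, 0, 4, 5, 2, 0 and 26. Members under 1 CPM, such as Col2a1, Col6a5 and Col6a6, rest on few counts per library.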
